A study of Mus musculus with 6 samples.

Results

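The 10 genes described here, out of 46078 gene rows, were nearly silent in alveolar macrophages that kept Car4 and were higher in every library from mice with Cre-mediated deletion of it. They are Saa3, Acpp, Pla2g2d, Tmem26, Cpq, Kcnj15, Fmnl2, Sestd1, P2ry1 and F830016B08Rik. They were chosen from these same libraries, because their level was near or under 1 CPM (counts scaled to library size by TMM), up to about 2.5, in each control library and higher in each Cre library. Their levels, fold changes and lack of overlap between groups are therefore description and carry no test.

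Polyadenylated RNA was sequenced from sorted lung macrophages of untreated mice, with 3 mice and 3 libraries in each group. Control mice (Car4fl/fl, n = 3) carried loxP-flanked Car4, the gene of the membrane-anchored carbonic anhydrase 4. The other mice (Car4fl/fl-CD11cCre, n = 3) had these alleles too, with Cre recombinase added under the control of CD11c, an integrin that alveolar macrophages and dendritic cells express. No group carried the Cre without floxed alleles, so an effect of the Cre itself cannot be told apart from loss of Car4. The sources used here do not give the age or sex of the mice.

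Alveolar macrophages live in the airspaces, where they take up surfactant lipid and inhaled particles. Unlike macrophages of the lung tissue or those derived from blood monocytes, they hold many inflammatory and tissue-type genes at very low levels. The 10 genes have diverse roles: secreted or surface enzymes and an acute-phase protein (Saa3, Pla2g2d, Acpp, Cpq), membrane receptors and channels (P2ry1, Kcnj15, Tmem26), and intracellular proteins of the cytoskeleton, lipid binding and host defence (Fmnl2, Sestd1, F830016B08Rik).

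The libraries held 53824475 to 65443314 counts, and 15147 genes were tested. Car4 was at 270 to 499 CPM in the controls and at 36.3 to 46.9 CPM in the Cre libraries, a log2 fold change of -3.23 ± 0.22 (SE, edgeR quasi-likelihood adjusted p = 0.0047). All 16 alveolar macrophage markers were detected in every library, the lowest being Car4 itself in the Cre libraries. Their levels were not all alike between groups. At an unadjusted edgeR p under 0.05, 5 were higher and 6 lower, Car4 among them, against 6.54 and 6.28% of all genes. The Cre libraries were not alike: on the first principal component (54% of the variance) the controls lay between -20.1 and -14.4, Cre library 1 at -1.41, and Cre libraries 2 and 3 at 28.7 and 27.1. Values for the 10 genes are therefore given library by library, and without a library where leaving it out moved the fold change by over 1.5 times.

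The genes lie on 9 chromosomes of GRCm38, with only Fmnl2 and Sestd1 sharing one, chromosome 2. RefSeq promoters of GRCm38.p6, from 250 bases before to 50 bases after the gene's start, were found for 8 of the 10 genes, without Cpq and F830016B08Rik. They were searched on both strands for 9 short motifs: the TATA box (TATAAA), PU.1 (GAGGAAG), C/EBP (TTNNGNAA), AP-1 (TGANTCA), NF-kB (GGGAN followed by TTTCC), the interferon response element or ISRE (GAAA repeated with 2 free bases between), STAT (TTCNNNGAA), STAT6 (TTC and GAA with 4 free bases between) and the E-box (CACGTG). Shown are the promoters of 3 genes with a like dip in Cre library 1 (Saa3, Pla2g2d, Acpp), of Tmem26, which was high in 1 Cre library alone, and of Kcnj15, which was not lowest in Cre library 1. Capitals mark motif matches, and each is written 5′ to 3′ on the gene's strand.
Saa3: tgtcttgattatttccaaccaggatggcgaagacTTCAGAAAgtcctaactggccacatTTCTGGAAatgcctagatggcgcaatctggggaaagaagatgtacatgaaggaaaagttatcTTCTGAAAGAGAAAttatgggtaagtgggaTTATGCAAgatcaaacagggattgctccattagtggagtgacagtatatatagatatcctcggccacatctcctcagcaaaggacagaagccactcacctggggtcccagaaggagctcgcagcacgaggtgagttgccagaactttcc
Pla2g2d: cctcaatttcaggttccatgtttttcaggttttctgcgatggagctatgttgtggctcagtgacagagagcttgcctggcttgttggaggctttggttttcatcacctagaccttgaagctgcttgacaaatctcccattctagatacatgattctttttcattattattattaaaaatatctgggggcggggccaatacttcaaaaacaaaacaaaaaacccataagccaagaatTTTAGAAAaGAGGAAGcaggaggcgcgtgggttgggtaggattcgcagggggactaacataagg
Acpp: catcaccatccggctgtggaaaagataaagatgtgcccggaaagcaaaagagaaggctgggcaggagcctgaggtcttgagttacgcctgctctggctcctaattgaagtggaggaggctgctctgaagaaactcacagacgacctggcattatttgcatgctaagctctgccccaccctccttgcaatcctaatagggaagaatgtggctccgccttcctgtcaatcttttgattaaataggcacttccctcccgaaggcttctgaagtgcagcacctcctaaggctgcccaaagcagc
Tmem26: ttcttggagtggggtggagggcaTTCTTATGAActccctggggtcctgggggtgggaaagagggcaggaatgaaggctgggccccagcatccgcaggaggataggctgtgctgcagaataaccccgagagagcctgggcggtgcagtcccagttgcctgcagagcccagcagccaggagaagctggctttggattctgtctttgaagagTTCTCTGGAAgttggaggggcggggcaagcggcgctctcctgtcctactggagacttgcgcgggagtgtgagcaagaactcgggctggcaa
Kcnj15: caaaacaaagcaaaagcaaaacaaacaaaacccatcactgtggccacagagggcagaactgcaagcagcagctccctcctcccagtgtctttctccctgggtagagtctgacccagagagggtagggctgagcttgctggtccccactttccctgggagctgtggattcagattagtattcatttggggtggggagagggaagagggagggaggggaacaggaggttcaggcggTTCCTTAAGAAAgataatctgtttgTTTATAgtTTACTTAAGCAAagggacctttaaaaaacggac
The promoter of Saa3 (chr7:46715627-46715926, minus strand) held 4 matches to the C/EBP motif, from -216 to -209, -191 to -184, -129 to -122 and -99 to -92 relative to the start. One of these overlapped an ISRE match from -125 to -116. That of Pla2g2d (chr4:138775485-138775784, plus strand) held a C/EBP match from -14 to -7 and a PU.1 match from -5 to 2. The Acpp promoter (chr9:104337673-104337972, minus strand) held none of the 9 motifs in this window. The Tmem26 promoter (chr10:68723496-68723795, plus strand) held 2 STAT6 matches, and that of Kcnj15 (chr16:95257308-95257607, plus strand) held 4 C/EBP matches in overlapping pairs and a TATA match on the other strand after the start. Of 32851 mouse promoters of the same length, 40.7% held the C/EBP motif, 3.44% the ISRE, 13.6% the PU.1 motif, 13.6% the TATA motif and 6.95% the STAT6 motif. The promoters of Fmnl2, Sestd1 and P2ry1, not printed, held no match to any of the 9 and were rich in CpG, with 49, 54 and 25 CpG dinucleotides, against 2 to 9 in the 5 shown and a median of 7 over all promoters.

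Among the secreted and surface proteins, Saa3 was the gene with no read at all in the controls. It encodes serum amyloid A3, an acute-phase apolipoprotein made outside the liver by macrophages and epithelia. It lies on chromosome 7 from 46711998 to 46715700 (ENSMUSG00000040026, minus strand, 4 exon blocks). The 3 control libraries held 0 counts, which allows up to 0.0498 to 0.0528 CPM at 3 counts, and the Cre libraries held 61, 837 and 650 counts, or 1.03, 13 and 12.1 CPM. Cre library 1 was the low one, yet still at least 20.3-fold above the mean floor of 3 counts per control library. The Cre mean of 8.69 ± 6.65 CPM (SD, n = 3) was at least 171-fold higher than that floor. Per length this was 10.6 ± 8.04 TPM (SD, n = 3; TPM scales counts by exon length and then by library), close to the median of 11.3 TPM over tested genes in the controls. Its relatives Saa1, Saa2 and Saa4 each had no more than 2 counts in any library.

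Pla2g2d encodes a secreted phospholipase A2 that frees fatty acids from phospholipids and is known from dendritic cells and macrophages (ENSMUSG00000041202, chromosome 4, 138775735 to 138782046). It was at 0.183, 0.316 and 0.0704 CPM in the controls and at 0.761, 7.16 and 10.5 CPM in the Cre libraries. Cre library 1 was again the lowest of its group, at 2.41 times the highest control, while the other two were far above. The means were 0.19 ± 0.123 and 6.13 ± 4.94 CPM (SD, n = 3), a 32.3-fold difference and a fitted log2 fold change of 4.99 ± 0.97 (SE), which was 4.36 without Cre replicate 3. The genes that flank it, the phospholipases Pla2g2f and Pla2g5, lie 18.1 and 17.2 kb away and held no more than 1 count in any library.

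Acpp encodes prostatic acid phosphatase, a surface and secreted enzyme that can turn AMP into adenosine (ENSMUSG00000032561, chromosome 9, 104288251 to 104337748). It was at 0.0332, 0.0499 and 0.123 CPM in the controls and at 0.321, 4.15 and 3.29 CPM in the Cre libraries. The controls held 12 counts in all, so each of their values rests on 2 to 7 reads, and Cre library 1 on 19. The fitted log2 fold change was 5.21 ± 1 (SE), with a Cre mean of 2.59 ± 2.01 CPM against 0.0688 ± 0.0479 (SD, n = 3). It was 5.89 without control replicate 3, which held 7 of the control reads.

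Cpq encodes a secreted carboxypeptidase that cleaves dipeptides and small peptides (ENSMUSG00000039007, chromosome 15, 33083129 to 33594552). It was at 0.133, 0.166 and 0.123 CPM in the controls and at 0.642, 2.46 and 2.82 CPM in the Cre libraries. The controls lay close together, and the Cre libraries split as for the preceding genes, with the first low and the other two within 1 CPM of each other. The means differed 14-fold, and the fitted log2 change was 3.79 ± 0.58 (SE).

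Among the membrane proteins, P2ry1 encodes a receptor for extracellular ADP that signals through Gq and phospholipase C (ENSMUSG00000027765, chromosome 3, 61002795 to 61008982). Its control libraries held 0, 1 and 5 counts, or 0, 0.0166 and 0.088 CPM, and its Cre libraries 21, 69 and 92 counts, or 0.355, 1.07 and 1.71 CPM. Even the highest Cre library was low, and per length the Cre mean was 0.775 ± 0.503 TPM (SD, n = 3). The fitted log2 fold change of 4.85 ± 0.89 (SE) rests on 6 control reads and was 6.64 without control replicate 3, which held 5 of them. An antisense gene, Gm37035, shares 992 exonic bases with P2ry1 and had 5 counts over the 6 libraries. Since the sources used here do not give the strand setting of the counting, reads of this pair cannot be told apart.

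Kcnj15 encodes the inward rectifier potassium channel Kir4.2 (ENSMUSG00000062609, chromosome 16, 95257558 to 95300260). It was at 0.647, 1.08 and 1.32 CPM in the controls and at 4.02, 4.2 and 2.75 CPM in the Cre libraries. In contrast to the enzymes, Cre library 1 was among the high ones and Cre library 3 was the lowest. The difference was 3.6-fold, 1.02 ± 0.341 against 3.66 ± 0.791 CPM (SD, n = 3), with a log2 fold change of 1.85 ± 0.29 (SE).

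Tmem26 encodes a multi-pass membrane protein used as a surface marker of beige fat cells (ENSMUSG00000060044, chromosome 10, 68723646 to 68782650). It was at 0.0996, 0.0831 and 0.0352 CPM in the controls and at 0.338, 0.589 and 8.86 CPM in the Cre libraries. The controls held 13 counts of Tmem26 in all. Nearly all of its Cre signal, 477 of 535 counts, came from library 3. The Cre mean of 3.26 ± 4.85 CPM (SD, n = 3) thus had an SD larger than itself. The log2 fold change was 5.43 ± 1.43 (SE) and 2.63 without Cre replicate 3. In the same library the summed level of 10 B and plasma cell markers was 182 CPM, against 30.1 and 61.2 CPM in Cre libraries 1 and 2 and 30.8 to 54.1 CPM in the controls. All 10 of these markers were detected, and their part in the level of Tmem26 was not tested.

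Of the intracellular proteins, Fmnl2 is a formin, which elongates actin filaments downstream of Cdc42 at the leading edge of cells (ENSMUSG00000036053, chromosome 2, 52857860 to 53133804). It was at 0.631, 0.748 and 0.651 CPM in the controls and at 3.09, 13 and 8.08 CPM in the Cre libraries. All Cre libraries were well above the controls, the lowest of them 4.13 times the highest control. The log2 fold change was 3.57 ± 0.5 (SE), from 0.677 ± 0.0627 to 8.06 ± 4.96 CPM (SD, n = 3).

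Sestd1 encodes a phospholipid-binding protein with a SEC14-like domain and spectrin repeats (ENSMUSG00000042272, chromosome 2, 77180340 to 77280592). It was the gene with the highest controls, at 2.49, 2.05 and 2.36 CPM, against 5.48, 11.6 and 9.19 CPM in the Cre libraries. Its control values varied little and its Cre values by 2.11-fold. The log2 fold change was 1.93 ± 0.26 (SE), and per length its Cre mean was 2.82 ± 0.937 TPM (SD, n = 3).

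F830016B08Rik, also named Ifgga4, belongs to the interferon-inducible immunity-related GTPases, which act against intracellular microbes (ENSMUSG00000090942, chromosome 18, 60293380 to 60303016). It was at 0.0498, 0.0998 and 0.0352 CPM in the controls and at 0.575, 0.682 and 0.91 CPM in the Cre libraries. It had the lowest Cre mean of the 10 and was among the most even over the Cre libraries, with a mean of 0.722 ± 0.171 CPM (SD, n = 3). The log2 fold change was 3.5 ± 0.42 (SE). That value rests on 11 control reads and was 4.01 without control replicate 2 and 3.23 without control replicate 3. Its family has near-identical copies on the same chromosome, so the split of reads among them is uncertain.

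**Figure D1:**
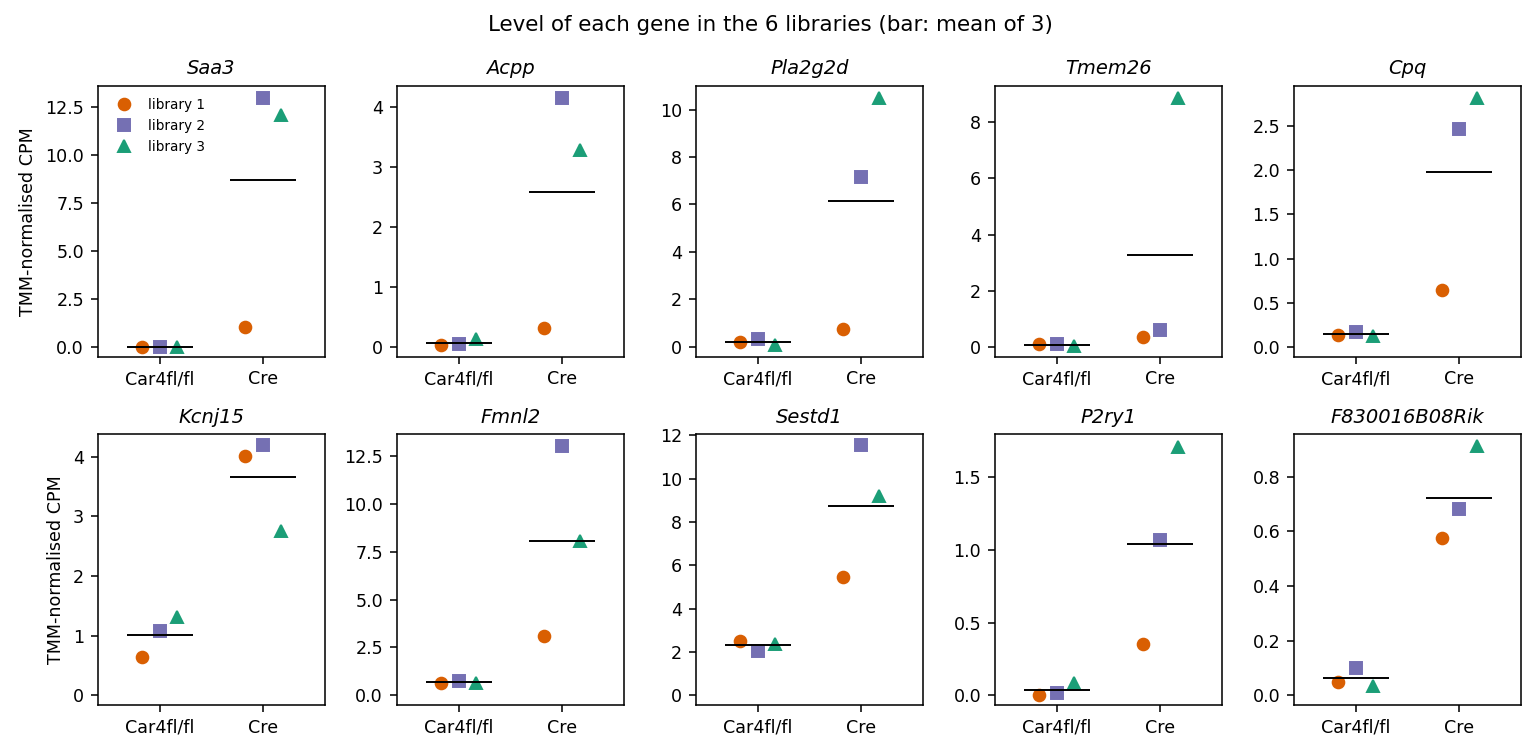
TMM-normalised CPM (vertical axis, linear, a separate scale per panel) of the 10 genes in the control (Car4fl/fl) and Cre libraries, with symbols for libraries 1 to 3 of each group and a bar at the mean. In each panel the 3 Cre libraries lie above the 3 controls, Cre library 1 is the lowest Cre library in 9 panels, and Tmem26 is high in Cre library 3 alone.

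Per length, the control means of the 10 genes were 0 to 0.759 TPM and the Cre means 0.7 to 10.6 TPM. In the Cre libraries the order from the top was Saa3, Pla2g2d, Fmnl2, Sestd1, Tmem26, Kcnj15, Cpq, Acpp, P2ry1 and F830016B08Rik. The gap between neighbours in this order was smaller than the larger SD of the pair in each case, so no adjacent pair stood apart beyond its spread. By mean TPM in the Cre libraries none of the 10 exceeded the median tested gene. Saa3 came closest, above 49% of tested genes, and F830016B08Rik was the lowest, above 14.9%.

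In the fit over all 15147 genes by edgeR quasi-likelihood, 0 of the 10 passed an adjusted p of 0.05, where 0.0066% of all genes were called higher (1 gene). All 10 had an unadjusted p under 0.05 on the higher side, against 6.54% of all genes. DESeq2 called 9 of the 10 and gave Tmem26 no adjusted p, against 2.28% of all genes called higher, and limma-voom called 0. For each of the 10 the lowest Cre library exceeded the highest control, against 8.63% of all genes. Because the rule used this contrast, nothing is read from these counts. Without Cre replicate 1, edgeR called 8 of the 10, all but Tmem26 and Kcnj15, against 1.59% of all genes. Without a filter on low counts it called 10, against 1.23%, and with a minimum of 1 CPM in 3 libraries, which only 4 of the 10 passed, 0, against 0.00863%.

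The median fitted log2 fold change of the 10 was 4.32, against -0.00 over all tested genes. Putting Saa3 at its lower bound of 7.42 in place of the fitted 12 cannot move this median, since Saa3 stays the highest of the 10. Without Cre replicate 3 the median was 3.51. The fitted value of Saa3 is no bound, since it depends on the prior count where a group is at 0.

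**Figure D2:**
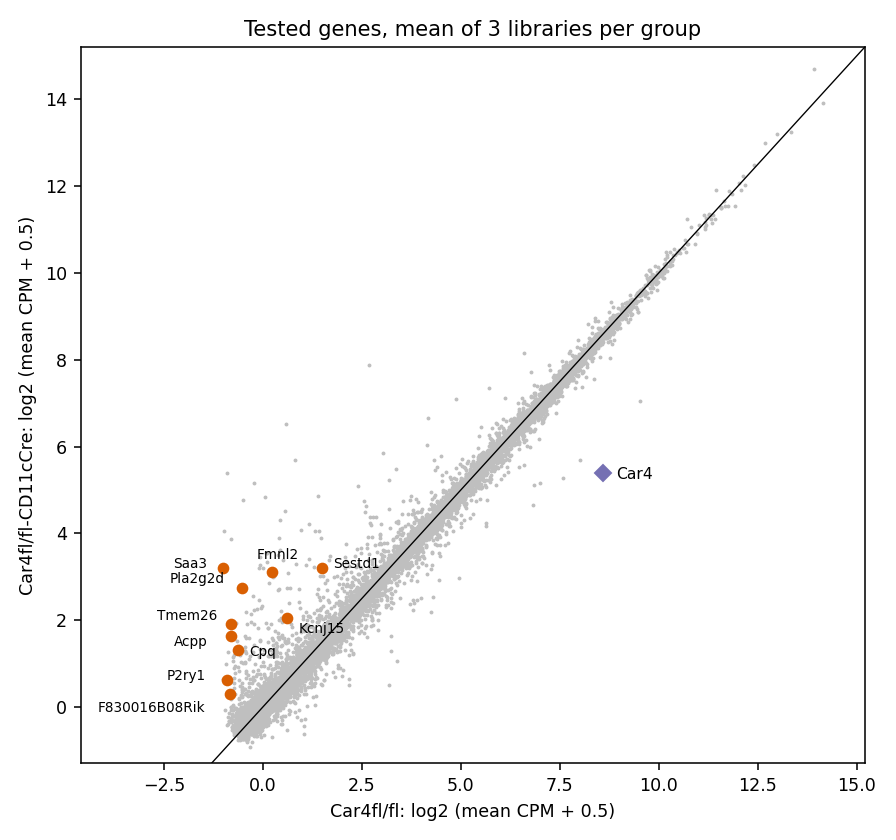
Each grey point is 1 of 15147 tested genes, by its mean level in the 3 control libraries (horizontal axis) and the 3 Cre libraries (vertical axis), both as log2 (mean CPM + 0.5), with the line of equality. The 10 genes (orange) lie at the left edge above the line, and Car4 (diamond) lies below it.

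The 10 are a selection from a larger group. With the limit written as a control level of at most 2.5 CPM in each library, no overlap and a Cre mean at least 2 times the control mean, 240 genes met the rule (1.58% of tested genes), and 68 met its mirror, low in each Cre library and higher in each control (0.449%). With a fold of at least 8 the counts were 69 and 2 (0.456 and 0.0132%), and 8 of the 10 genes reached it, all but Kcnj15 and Sestd1. Leaving out single libraries moved the first count between 237 (without Cre replicate 3) and 377 (without control replicate 2), with 373 without Cre replicate 1. The mirror count moved between 74 and 155, with 130 without Cre replicate 1, 134 without control replicate 3, 106 without control replicate 1 and 155 without Cre replicate 3. At a fold of at least 8 the counts moved between 46 (without Cre replicate 3) and 91 (without Cre replicate 1), and the mirror between 1 (without control replicate 1) and 4 (without Cre replicate 1). The limit cuts through a continuum: Sestd1 lies just inside with a highest control of 2.49 CPM, while Pitpnm2 (2.52) and Ablim1 (2.56) lie just outside. Pitpnm2 was at 3.41, 4.34 and 3.38 CPM in the Cre libraries and Ablim1 at 3.7, 8.92 and 7.63 CPM.

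Within the Cre group the genes followed a common order in part. Cre library 1 was the lowest of the 3 Cre libraries for 9 of the 10 genes, all but Kcnj15, against 32.2% of all tested genes and 77.4% of the other 230 genes that met the rule. The share among the 10 is therefore not particular to them. Above it, 5 genes were highest in Cre library 2 (Saa3, Acpp, Kcnj15, Fmnl2 and Sestd1) and 5 in Cre library 3 (Pla2g2d, Tmem26, Cpq, P2ry1 and F830016B08Rik). Over the control mean, on a log2 scale with 0.5 CPM added, the median of the 10 was 0.90, 2.16 and 2.56 in Cre libraries 1, 2 and 3, against -0.01 in each over all tested genes. With 3 libraries no correlation is given.

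The genes differed in how low Cre library 1 was. As a share of the highest Cre library, Cre library 1 stood at 3.82% for Tmem26 (95% exact interval 2.31 to 5.96%), 7.26% for Pla2g2d (5.24 to 9.85%), 7.73% for Acpp (4.58 to 12.3%) and 7.95% for Saa3 (6.03 to 10.3%). These intervals cover counting error only. Those of Pla2g2d, Acpp and Saa3 overlap each other, and that of Tmem26 overlaps those of Pla2g2d and Acpp. Tmem26 was also low in Cre library 2, at 6.65% of its highest library. The intervals of P2ry1 (20.8%, 12.3 to 33.7%), Cpq (22.8%, 15.5 to 32.6%) and Fmnl2 (23.8%, 20.1 to 27.9%) also overlap each other, and lie above those of Saa3 and Pla2g2d. Sestd1 stood at 47.4% (41.5 to 54.1%), F830016B08Rik at 63.1% (39.5 to 99.8%) and Kcnj15 at 95.8% (80.2 to 114%). For F830016B08Rik and Kcnj15 the 3 Cre libraries were close, with 1.58-fold and 1.53-fold between the highest and the lowest, against 26.2-fold for Tmem26 and 12.6 to 13.8-fold for Saa3, Acpp and Pla2g2d. Remaining Car4 was at 40.2, 46.9 and 36.3 CPM in libraries 1, 2 and 3, the order of Kcnj15 and of none of the other 9 genes.

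**Figure D3:**
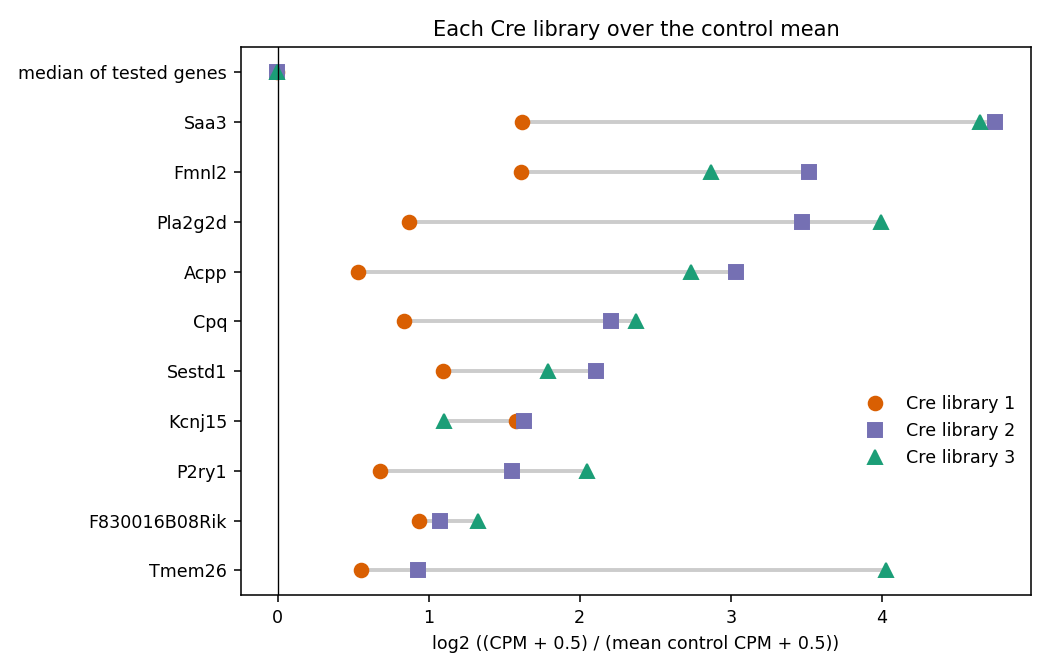
For each gene (rows), the log2 ratio of CPM + 0.5 in Cre libraries 1, 2 and 3 to the control mean + 0.5, with the median over tested genes in the top row near 0. Saa3, Pla2g2d and Acpp have Cre library 1 far left of the other two, Tmem26 has Cre library 3 alone far right, and Kcnj15 and F830016B08Rik have all 3 close together.

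The gene with the most similar profile was sought for each of the 10 among 12504 other named genes, by the root mean square distance of the 3 log2 ratios. The closest were Slamf7 to Pla2g2d (distance 0.0967), Sdc1 to P2ry1 (0.113), Stard13 to F830016B08Rik (0.148), B4galt6 to Cpq (0.16), Serpina3g to Acpp (0.178) and Zc3h12c to Sestd1 (0.239). Those nearest to Kcnj15 (Igf2bp3, 0.342), Tmem26 (Adam8, 0.372), Saa3 (Mmp14, 0.422) and Fmnl2 (Anpep, 0.472) were farther away. Each nearest gene is the lowest of 12504 distances over 3 ratios, so its closeness is description only. Slamf7, an immune cell surface receptor and the nearest to Pla2g2d, was at 0.73, 0.599 and 0.37 CPM in the controls. In the Cre libraries it was at 1.27, 11.9 and 15.8 CPM. The matrix metalloproteinase Mmp14 had the split of Saa3, at 2.33, 29.9 and 25.2 CPM in the Cre libraries and 0.651 to 0.996 CPM in the controls. Nearest to the median profile of the 10 were the heparan sulfate proteoglycan Sdc4 (0.112), the chemokine Ccl9 (0.241), B4galt6 (0.272), the growth factor Igf1 (0.277) and Tmeff1 (0.299). Ccl9 and Igf1 were not near-silent, with controls at 27.6 to 30.1 and 10 to 23.4 CPM.

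Some markers of interstitial macrophages, which live in the lung tissue, were higher in the Cre libraries, but not the list as a whole. Of 16 listed markers 0 passed edgeR over all genes, 12 were above control in the fit, and 8 did not overlap on the higher side, against 8.63% of all genes. Of these 16, 0 were at 0 in all libraries, and 2 stayed under 1 CPM throughout. Their summed level was 1474 to 1629 CPM in the controls and 1479, 1704 and 1572 CPM in the Cre libraries, a sum made up mostly of Selenop, Csf1r and Cd14. The complement genes C1qa, C1qb and C1qc were at 0.614 to 1.01 CPM in the controls. They were at 1.47 to 1.91, 7.03 to 12.4 and 14.1 to 23.4 CPM in Cre libraries 1, 2 and 3. This order was also seen for 5 of the 10 genes (Pla2g2d, Tmem26, Cpq, P2ry1 and F830016B08Rik). It held for 13.4% of all tested genes and 45.8% of the 240 genes that met the rule, so it is not particular to them. Cd163, another marker of that list, lay on the other side in every Cre library, at 0.651 to 1.3 CPM in the controls and 0.201 to 0.423 CPM in the Cre libraries (log2 fold change -1.53, edgeR quasi-likelihood adjusted p 0.185). Folr2 and Lyve1 stayed at or under 1.84 CPM, with overlapping groups. Dendritic cell markers, of interest because Pla2g2d and CD11c are known from these cells, summed to 26.5 to 37.1 CPM in the controls and 26.9 to 36.5 CPM in the Cre libraries, with 2 of 11 tested not overlapping on the higher side. The part of such cells in the levels of the 10 genes was not tested, and in bulk RNA more cells of a type and more RNA per cell cannot be told apart.

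Relatives of the 10 genes mostly lay near control, but a larger share of them than of all genes was higher at an unadjusted p under 0.05. Over 15 lists of relatives and pathway partners, 0 of 110 tested genes other than the 10 passed edgeR over all genes, and 27 had an unadjusted p under 0.05, of which 23 were higher and 4 lower (6.54% of all genes were higher and 6.28% lower by this criterion). DESeq2 called 8 of the 110, against 345 higher and 219 lower of all 15147 genes, and limma-voom called 0. Their median log2 fold change was -0.00.

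Among phospholipases, Pla2g12a, the other tested secreted form, was at 5.53 to 7.26 CPM in the controls and 5.8 to 6.94 CPM in the Cre libraries. Of 12 other phospholipases A2, Pla2g7 was the 1 that met the same numeric rule as the 10. It encodes the platelet-activating factor acetylhydrolase and was at 1.74, 2.21 and 1.27 CPM in the controls and 3.62, 19.1 and 31.4 CPM in the Cre libraries, a log2 fold change of 3.37 with an adjusted p of 0.149 by edgeR quasi-likelihood. The abundant lysosomal Pla2g15 was at 704 to 759 CPM in the controls and 727 to 796 CPM in the Cre libraries. Of the acid phosphatases, Acp5, the tartrate-resistant enzyme of osteoclasts and macrophages, was at 201 to 239 CPM in the controls and 202, 409 and 274 CPM in the Cre libraries, and Acp1, Acp2 and Acp6 had log2 fold changes between -0.09 and 0.13.

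Some other nucleotide receptors were well detected in both groups, while others, such as P2ry4 with no more than 2 counts in any library, were not. P2ry13, like P2ry1 a receptor for ADP, was at 131 to 161 CPM in the controls and 102 to 133 CPM in the Cre libraries, and P2ry14, a receptor for UDP-sugars, at 111 to 126 and 124 to 144 CPM. Neither passed the test (edgeR quasi-likelihood adjusted p 0.414 and 0.343). Of 6 tested P2Y receptors besides P2ry1, 3 were above control and 0 passed edgeR over all genes. At an unadjusted p under 0.05, 2 were higher (6.54% of all genes) and 0 lower. Of 7 tested P2X and adenosine receptors, 3 were higher and 0 lower at that limit. P2ry2 was the 1 of these 6 P2Y receptors that did not overlap on the higher side (8.63% of all genes). It was at 67.8 to 90.7 CPM in the controls and 92.4 to 97.4 CPM in the Cre libraries. Listed enzymes that act on purine nucleotides or adenosine included Nt5e and Entpd1. Nt5e was at 41.5 to 73.5 CPM in the controls and 35 to 49.7 CPM in the Cre libraries. Entpd1 was at 103 to 110 and 101 to 110 CPM. Of 7 tested genes of that list without Acpp, 0 passed edgeR and 0 had an unadjusted p under 0.05.

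Among the formins, the closest relatives of Fmnl2 did not pass the test. Fmnl1 was at 516 to 617 CPM in the controls and 523 to 567 CPM in the Cre libraries, and Fmnl3 at 128 to 136 and 103 to 118 CPM. Of 11 tested formins besides Fmnl2, 2 were above control and 9 below, 0 passed edgeR over all genes, and 2 (Fmnl3 and Inf2) had an unadjusted p under 0.05, both lower. Of 16 regulators of actin assembly, Baiap2, which links Cdc42 and Rac to membrane protrusion, shared with Fmnl2 the order of the Cre libraries, at 2.12 to 2.29 CPM in the controls and 3.14, 13 and 6.46 CPM in the Cre libraries (log2 fold change 1.77, edgeR quasi-likelihood adjusted p 0.184). That order held for 18.8% of all tested genes and 32.1% of the 240 genes that met the rule.

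Among inward rectifiers Kcnj2 was at 5.53 to 11.7 CPM in the controls and 4.74 to 8.03 CPM in the Cre libraries, while Kcnj10, a relative of Kcnj15, was at 0.482 to 0.686 and 0.795 to 1.1 CPM. Of carboxypeptidases, Ctsa, Prcp and Cpd had log2 fold changes between -0.04 and -0.02, and the serine carboxypeptidase Scpep1 was at 109 to 117 CPM in the controls and 125 to 151 CPM in the Cre libraries (edgeR quasi-likelihood adjusted p 0.168). Mcf2l, which has a SEC14-like domain and was listed beside Sestd1, was at 0.614, 0.798 and 1.09 CPM in the controls and 1.2, 3.59 and 5.81 CPM in the Cre libraries.

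Most tested immunity-related GTPases lay above control. Of 12 tested besides F830016B08Rik, 10 were above control and 7 did not overlap on the higher side (8.63% of all genes), 0 passed edgeR over all genes, and 7 had an unadjusted p under 0.05 (6 higher and 1 lower, against 6.54 and 6.28% of all genes). Gm4951, also named Ifgga2 and on the same chromosome, came closest, at 0.315, 0.416 and 0.141 CPM in the controls and 1.18, 1.52 and 2.6 CPM in the Cre libraries, a log2 fold change of 2.59. It too had Cre library 1 as the lowest and library 3 as the highest, as F830016B08Rik did. That order held for 13.4% of all tested genes and 45.8% of the 240 genes that met the rule. The well-detected relatives AI607873 and 9930111J21Rik2 differed by 0.20 and 0.18 on the log2 scale. Of 8 tested guanylate-binding proteins, which belong to the same defence programme, 7 were above control, the median log2 change was 0.34, and 0 passed edgeR (3 higher at an unadjusted p under 0.05).

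**Figure D4:**
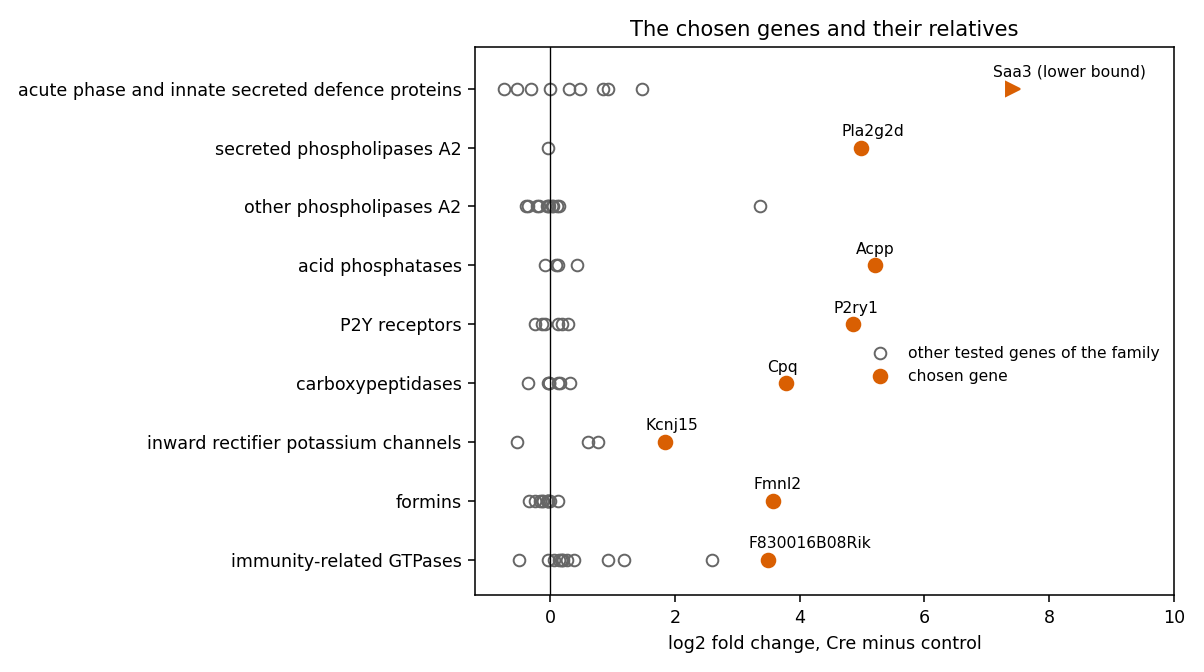
Log2 fold change (horizontal axis, Cre minus control) of 8 of the 10 genes (orange, Tmem26 and Sestd1 not drawn) and of the other tested genes of 9 family or pathway lists (open circles), with Saa3 drawn as a triangle at its lower bound of 7.42. Most relatives lie near 0, and Pla2g7 (3.37) and Gm4951 (2.59) are the relatives farthest to the right.

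Of 20 protein-coding genes flanking the 10, 9 were tested, 0 passed edgeR, and their median log2 fold change was 0.03. Only 1 had an unadjusted p under 0.05, on the higher side (6.54% of all genes were higher and 6.28% lower by this criterion). Saal1, 1.32 kb from Saa3, was at 7.76 to 8.67 CPM in the controls and 7.13 to 8.41 CPM in the Cre libraries. Rhobtb1, 369 kb from Tmem26, was the 1 of the 9 tested neighbours whose groups did not overlap on the higher side, against 8.63% of all genes. It was at 0.116 to 0.149 CPM in the controls and 0.186, 0.31 and 0.483 CPM in the Cre libraries.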

How the data were processed

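Values were the deposited gene counts per library, whole numbers made by the authors. Among the tools listed in the submitters' processing notes are featureCounts 1.6.4, STAR 2.6.1 and cutadapt 2.5, with the build GRCm38. The annotation and strand setting of the counting were not given in the sources used. Libraries were grouped by the labels. Genes with too few reads were removed (filterByExpr, minimum count 10), leaving 15147 of 46078. Counts were scaled by TMM and tested with edgeR 4.0.16 quasi-likelihood in R 4.3.3, with Benjamini-Hochberg adjustment over all tested genes and a threshold of 0.05. DESeq2 1.42.0 and limma-voom 3.58.1 were among 16 alternatives. CPM are TMM-scaled, and TPM used GENCODE M21 exon lengths. The fitting script was tested on simulated counts.

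The 10 genes, the lists of relatives and markers and the tests were chosen with earlier results of these data known. Named genes are the 10, their listed relatives, chromosomal neighbours, nearest profiles and the genes just outside the limit. At 3 counts the libraries' floors were 0.0465 to 0.0557 CPM, which covers counting error only.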

Additional observations from a re-analysis of the deposited data

How the results depend on the processing

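The fitted fold change of each of the 10 genes stayed positive under every alternative that tested it. A minimum of 1 CPM in 3 libraries left 4 of them, with a median log2 fold change of 2.76. edgeR called 1 gene higher and 1 lower over all genes. DESeq2 called 345 and 219, with 9 of the 10 and 8 relatives, and no filter gave 340 and 183, with 10 and 6. Robust dispersions gave 0 lower. The replicate block gave 8 higher and 2 lower, with 1 of the 10 (Saa3; 0.0528% of all genes were called higher). Same-numbered libraries had deviation correlations of -0.03, -0.19 and 0.04, and 1 of the 6 libraries (control 3) correlated best with its own number, so the numbers were not taken to pair them. Leaving out 1 library gave 1 to 249 higher and 0 to 52 lower, with 0 to 8 of the 10 and 0 to 5 relatives. Higher and lower calls numbered 249 and 37 when Cre replicate 1 was left out, and 15 and 52 when control replicate 3 was. They numbered 8 and 1 when Cre replicate 2 was dropped, and 1 and 0 for control replicate 2. With a pseudocount of 0.1 CPM the median log2 ratio of the 10 was 1.69, 3.26 and 3.67 in Cre libraries 1, 2 and 3. With 2 CPM it was 0.33, 1.32 and 1.37 in the same libraries. limma-voom gave a log2 fold change of 9.34 for Saa3, 4.62 for Acpp and 3.91 for Tmem26, and a median of 3.70. The replicate block gave 4.40 for Tmem26, and a prior count of 2 gave 8.01 for Saa3 and 3.98 for P2ry1. The cause of these shifts was not tested. Values resting on few control reads are limited by depth. These reads numbered 0 for Saa3, 6 for P2ry1, 11 for F830016B08Rik, 12 for Acpp and 13 for Tmem26.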
